A study of Homo sapiens with 6 samples.

Results

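The genes of proteoglycan core proteins and of the enzymes that build their sugar chains were followed in SiHa, an established cervical cancer cell line, 72 h after transfection with vector plasmid or hsa_circ_0005358 plasmid (circ_0005358 below). The labels spell the name of this RNA with differing digits, and these spellings were taken to mean 1 RNA. The genes are the 10 symbols XYLT1, XYLT2, FAM20B, EXT1, EXT2, SULF2, SDC1, SDC2, SDC4 and GPC1, each found on 1 row of its own among the 35544 loci of the deposited table. The study has 3 libraries of polyA RNA per plasmid, measured in FPKM, which scales fragments to transcript length and library size so that levels can be compared between genes. Every group shares the cell line, the plasmid transfection and the collection time, the labels do not say that the replicates were separate cultures, and p-values therefore measure the spread between libraries only. The genes were proposed with the results of this same comparison known, XYLT1 as one of the loci that fell most, so their differences are a description and no independent evidence.

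Proteoglycans are core proteins that carry long sulfated sugar chains, the glycosaminoglycans. Heparan sulfate and chondroitin sulfate chains are attached to serine residues. A xylosyltransferase starts each such chain with a xylose, further enzymes complete a short linkage region, and polymerases then extend it as heparan sulfate or as chondroitin sulfate. On epithelial cells heparan sulfate is carried mainly by syndecans, which span the membrane, and glypicans, which a lipid anchors to it, and these chains bind growth factors, chemokines and matrix proteins.

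A single xylosyltransferase, some of the syndecans and the enzyme that trims finished heparan sulfate differed between the plasmids, while the polymerase subunits did not pass the test. With circ_0005358 XYLT1, SDC4 and SULF2 were lower and SDC1 was higher, each past limma's threshold (adjusted p under 0.05 over all loci tested). Of the 10 genes, 9 reached the filter of at least 1 FPKM in at least 3 libraries, and 4 of these 9 were called, against 11.4% of all 10295 tested loci. By direction, 1 of 9 was higher and 3 were lower, against 6.41% and 4.96% of all tested loci. The groups did not overlap in 6 of the 9, against 35.8% of all tested loci. The genes had been chosen with this contrast known, and nothing is read from these shares. The 4 calls became 2 (XYLT1 and SDC4) when vector replicate 3, which listed the most loci above 0, and circ_0005358 replicate 2, the shallowest library, were both left out.

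XYLT1 and SDC4 are the called genes for which RefSeq gives a single start, and the 250 bases upstream of that start are shown to let their promoters be set side by side. Both lie on the minus strand of GRCh38.p14, XYLT1 at chr16:17470961-17471210 and SDC4 at chr20:45348425-45348674. Each is written 5′ to 3′ toward the start, and the capitals mark the GC box GGGCGG on either strand.
XYLT1: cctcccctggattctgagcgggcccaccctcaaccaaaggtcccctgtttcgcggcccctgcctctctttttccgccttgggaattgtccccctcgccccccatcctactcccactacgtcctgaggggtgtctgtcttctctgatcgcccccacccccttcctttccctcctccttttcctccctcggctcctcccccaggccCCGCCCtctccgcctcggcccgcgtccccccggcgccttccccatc
SDC4: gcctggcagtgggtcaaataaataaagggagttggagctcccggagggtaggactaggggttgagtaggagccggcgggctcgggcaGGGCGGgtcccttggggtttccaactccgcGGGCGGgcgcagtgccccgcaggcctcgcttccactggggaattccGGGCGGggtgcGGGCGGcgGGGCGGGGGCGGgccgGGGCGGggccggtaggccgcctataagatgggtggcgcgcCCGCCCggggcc
The XYLT1 window holds 1 GC box and the SDC4 window 8, and 42.6% of all 35116 RefSeq windows of this length hold at least 1. The XYLT1 window is 67.6% G and C with 15 CG dinucleotides, and the SDC4 window 73.6% with 26, against medians of 58% and 11 over all windows. The same search for the TATA box TATAAA, the AP-1 motif TGANTCA and the E-box CACCTG, on both strands, found none in either window, and 10.7%, 6.57% and 17.5% of all windows hold them. The XYLT2 window, not printed, holds 3 GC boxes and 39 CG dinucleotides. These letters are a description of the reference and not of binding in these cells.

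**Figure D1:**
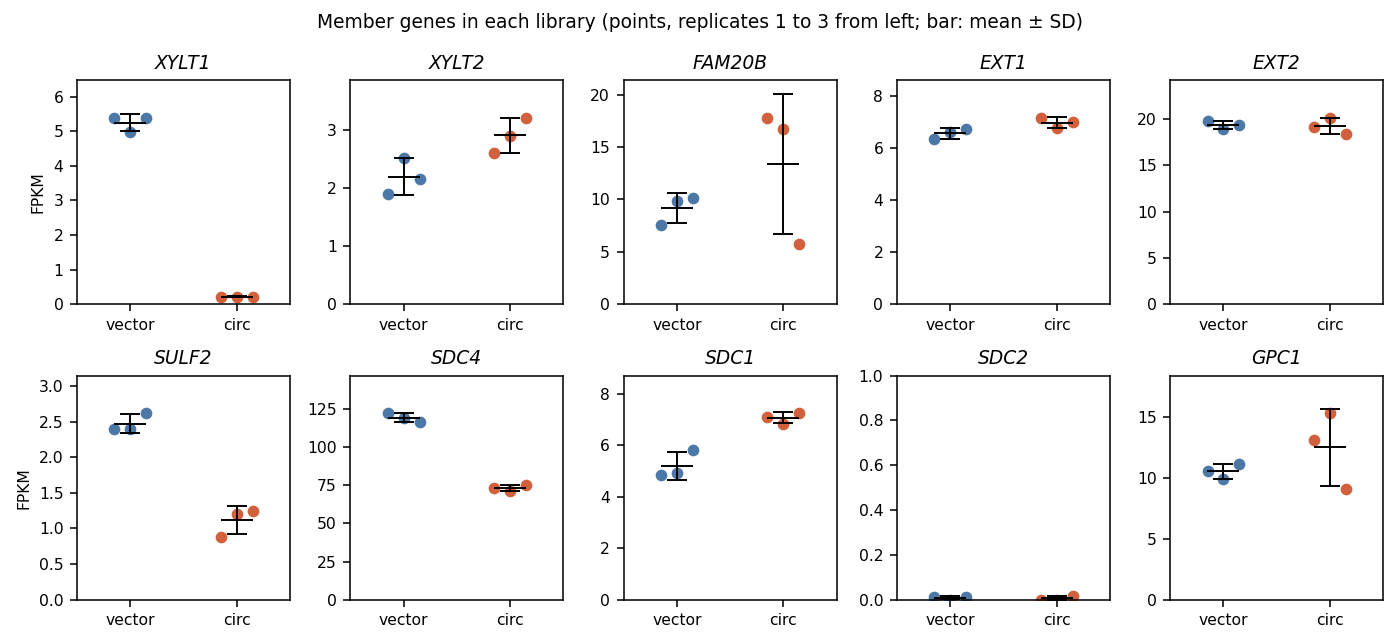
Level of each gene in FPKM (vertical axes, each from 0) in the 3 vector libraries (blue) and the 3 circ_0005358 libraries (orange), with replicates 1 to 3 from left to right and the mean ± SD in black. XYLT1, SDC4 and SULF2 are lower with circ_0005358 in every library, SDC1 is higher in every library, SDC2 is at or near 0 throughout, and circ_0005358 replicate 3 is the lowest library for FAM20B and GPC1.

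XYLT1 and XYLT2 encode the xylosyltransferases, the paralogous enzymes that attach the first xylose to the core protein. XYLT1 stood at 5.40, 4.97 and 5.39 FPKM in vector replicates 1 to 3, and the circ_0005358 replicates, in the same order, read 0.198, 0.222 and 0.222 FPKM. Every vector library was thus far above every circ_0005358 library, and the spread within each group was small beside the gap. The means were 5.25 ± 0.245 and 0.214 ± 0.0141 FPKM (SD, n = 3 each), a ratio of 0.0407. On the log2(FPKM + 1) scale, which understates changes of low genes, XYLT1 had a log2 fold change of -2.36 ± 0.061 (SE; adjusted p = 0.000125 by limma). XYLT1 reached the filter through the vector libraries alone. The call held in all 15 alternatives that tested the gene. In RNA from whole cultures, fewer cells with the transcript and less transcript per cell cannot be told apart.

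XYLT2 read 1.90, 2.52 and 2.16 FPKM in the vector libraries against 2.61, 2.90 and 3.21 FPKM in those with circ_0005358. All 3 libraries with circ_0005358 were above the highest vector library, but the narrowest gap between the groups was small beside the spread within them. Its log2 fold change was 0.29 (95% interval 0.04 to 0.55, limma adjusted p = 0.139), short of the threshold. The paralogs exchanged ranks: XYLT1 made up 74.0%, 66.3% and 71.4% of the summed xylosyltransferase FPKM in the vector libraries and 7.04%, 7.11% and 6.46% in the circ_0005358 libraries. Their sum was 7.45 ± 0.135 FPKM with vector and 3.12 ± 0.313 FPKM with circ_0005358 (SD, n = 3 each), a ratio of 0.419.

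XYLT1 (ENSG00000103489) spans bases 17101769 to 17470881 of chromosome 16 (GRCh38, minus strand), and XYLT2 (ENSG00000015532) spans bases 50346092 to 50363138 of chromosome 17 (plus strand), both from GENCODE 29, as are all gene positions below. Of the 20 tested loci nearest to XYLT1, 10 on each side, 0 were called by limma, against 11.4% of all tested loci. At an unadjusted p under 0.05 there were 3, and the median log2 fold change of the 20 was -0.03. These neighbours span 4.49 Mb.

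FAM20B encodes the kinase that phosphorylates the first xylose, a mark needed for the linkage region to be completed efficiently. Its vector libraries read 7.54, 9.84 and 10.2 FPKM, and its circ_0005358 libraries 17.8, 16.7 and 5.74 FPKM. The first pair of circ_0005358 libraries was above all vector libraries and the third was below them, so the groups overlapped. The log2 fold change was 0.37 with a 95% interval from -0.69 to 1.43 (limma adjusted p = 0.626). Without circ_0005358 replicate 3 it was 0.85 and passed the test (limma adjusted p = 0.0465), so that 1 library decided the call. FAM20B lies on chromosome 1, bases 179025804 to 179076562.

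**Figure D2:**
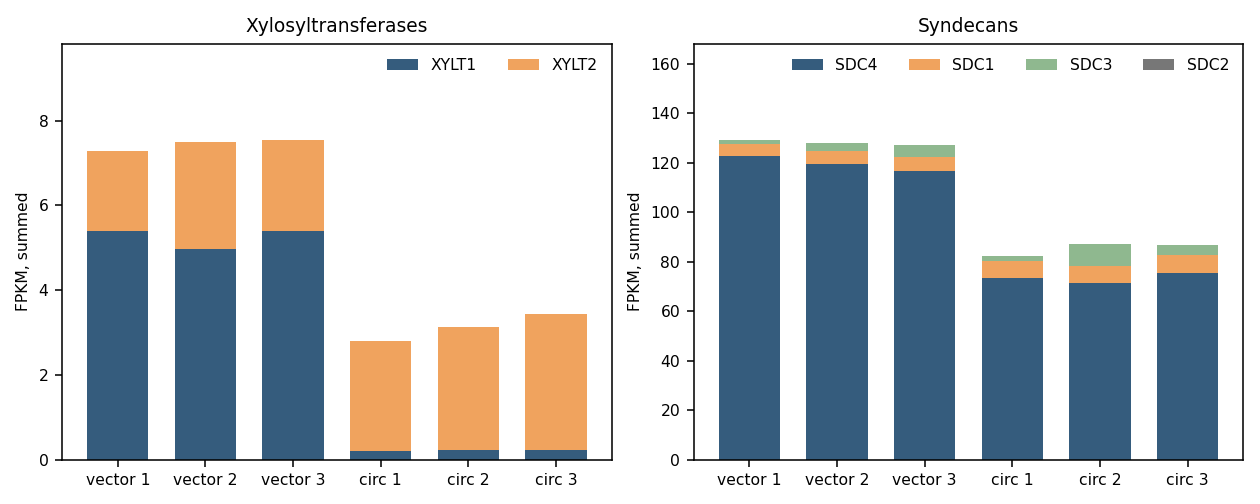
Summed FPKM (vertical axes from 0) of the xylosyltransferases XYLT1 and XYLT2 (left) and of the 4 syndecan genes (right) in each library, stacked by gene, with circ for circ_0005358. The xylosyltransferase sum lies between 7.29 and 7.55 FPKM with vector and between 2.81 and 3.43 FPKM with circ_0005358, where nearly all of it is XYLT2, and SDC4 is the largest part of every syndecan bar.

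EXT1 and EXT2 encode the subunits of the polymerase that builds the heparan sulfate backbone, and they were the steadiest of the set. EXT1 read 6.35, 6.61 and 6.75 FPKM in the vector libraries against 7.17, 6.77 and 6.99 FPKM in those with circ_0005358. The groups lay side by side without overlap, yet the log2 fold change was 0.08 (95% interval -0.06 to 0.21, limma adjusted p = 0.439). EXT2 read 19.8, 18.97 and 19.3 FPKM, and then 19.1, 20.2 and 18.4 FPKM with the circular RNA plasmid, so the groups were mixed. Its log2 fold change was -0.01, with a 95% interval from -0.15 to 0.13 (limma adjusted p = 0.925). EXT2 was the more abundant subunit in every library, at 2.95 ± 0.147 times EXT1 with vector and 2.76 ± 0.188 times with circ_0005358 (SD, n = 3 each). EXT1 lies on chromosome 8, bases 117794490 to 118111853, and EXT2 on chromosome 11, bases 44095549 to 44245429.

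SULF2 encodes a secreted endosulfatase that removes 6-O-sulfate groups from finished heparan sulfate and thereby changes which growth factors the chain holds. The vector libraries read 2.39, 2.39 and 2.62 FPKM for it, and those with circ_0005358 read 0.886, 1.21 and 1.25 FPKM. The highest circ_0005358 library was below every vector library. The means were 2.47 ± 0.131 and 1.11 ± 0.198 FPKM (SD, n = 3 each), a ratio of 0.451, or -0.72 ± 0.091 as log2 fold change (SE; adjusted p = 0.00871 by limma). No single library, when left out, ended the call, but leaving out the pair of vector replicate 3 and circ_0005358 replicate 2 did (limma adjusted p = 0.0875). Its paralog SULF1 reached at most 0.104 FPKM in any library, so SULF2 carried nearly all transcript of these paralogous endosulfatases. The SULF2 row joins 17 transcripts, 6 of them with identifiers of the kind given to transcripts assembled from reads, and no other member's row held such transcripts.

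Syndecans are the transmembrane cores, and SDC4, the syndecan of focal adhesions, was the most abundant gene of the set in both groups. SDC4 read 122.6, 119.6 and 116.5 FPKM in the vector libraries against 73.3, 71.2 and 75.5 FPKM in those with circ_0005358. The 2 groups were far apart relative to their spread. The means were 119.6 ± 3.06 and 73.4 ± 2.16 FPKM (SD, n = 3 each), a ratio of 0.613, or -0.70 ± 0.048 as log2 fold change (SE; adjusted p = 0.0013 by limma). All 16 alternatives kept the call. The means differ by 46.2 FPKM, the largest difference in FPKM among the 10 genes.

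SDC1, the main syndecan of epithelia, stood far below SDC4 and differed in the opposite direction. With vector the libraries read 4.84, 4.92 and 5.81 FPKM, with circ_0005358 they read 7.11, 6.84 and 7.26 FPKM, and the groups did not overlap. The means were 5.19 ± 0.542 and 7.07 ± 0.212 FPKM (SD, n = 3 each), a ratio of 1.36, or 0.39 ± 0.080 as log2 fold change (SE; adjusted p = 0.0386 by limma). Leaving out vector replicate 1 (limma adjusted p = 0.112), vector replicate 2 (0.122), or circ_0005358 replicate 1 (0.0997), 2 (0.0838) or 3 (0.115) ended it, and leaving out vector replicate 3 did not.

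The share of SDC4 in the summed level of the syndecans was lower in the circ_0005358 libraries. SDC4 was 25.4, 24.3 and 20.04 times SDC1 in the vector libraries and 10.3, 10.4 and 10.4 times in the circ_0005358 libraries. The sum of the 4 syndecans was 128 ± 0.996 FPKM with vector and 85.4 ± 2.73 FPKM with circ_0005358 (SD, n = 3 each), a ratio of 0.666. The sum includes SDC3, which was not called and read 1.75, 3.48 and 4.90 FPKM in the vector libraries against 1.84, 9.01 and 4.04 FPKM in those with circ_0005358. SDC4 made up between 91.6% and 94.9% of that sum with vector and between 81.8% and 89.1% with circ_0005358, the lowest share being in replicate 2, where SDC3 was highest. SDC2, the syndecan typical of mesenchymal cells, was listed at 0 in 3 of the 6 libraries and at 0.0153 FPKM at most, and lay below the filter. The depth of the libraries is not given, and no upper limit was set for SDC2. SDC2 lies on chromosome 8, bases 96493351 to 96611780, and SDC1 on chromosome 2, bases 20200797 to 20225433.

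GPC1, a glypican held in the membrane by a lipid anchor, read 10.6, 9.91 and 11.1 FPKM in the vector libraries and 13.1, 15.3 and 9.08 FPKM in those with circ_0005358. As for FAM20B, circ_0005358 replicate 3 was the lowest of all 6 libraries and the other circ_0005358 libraries were the highest. The log2 fold change was 0.20 (95% interval -0.26 to 0.66, limma adjusted p = 0.55), short of the threshold, and without circ_0005358 replicate 3 it was 0.40 and still not called. GPC1 lies on chromosome 2, bases 240435671 to 240468078.

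Set in order of mean FPKM, SDC4 and EXT2 led in both groups, and SDC2 was last in both. With vector, the order went on with GPC1, FAM20B, EXT1, XYLT1, SDC1, SULF2 and XYLT2. The neighbours GPC1 and FAM20B, XYLT1 and SDC1, and SULF2 and XYLT2 overlapped between libraries and could not be ordered. With circ_0005358 the order went on with FAM20B, GPC1, SDC1, EXT1, XYLT2, SULF2 and XYLT1. Here FAM20B and GPC1, and SDC1 and EXT1, overlapped, and FAM20B also overlapped SDC1 and EXT1, since in circ_0005358 replicate 3 it lay below both. XYLT1 went from place 6 with vector to place 9, below XYLT2 and SULF2 in every circ_0005358 library.

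SDC4 and SULF2 lie on the same arm of chromosome 20, SDC4 at bases 45325288 to 45348424 and SULF2 at bases 47656348 to 47786616, both transcribed from the minus strand and 2.31 Mb apart. Of the 18 tested loci between them, 1 was called higher and 1 lower by limma, and the median log2 fold change was 0.03. The 20 tested loci nearest to SDC4 had a median of -0.08 with 2 higher and 1 lower, and those nearest to SULF2 a median of 0.04 with 1 higher and 1 lower. Over all tested loci 11.4% were called, and windows of so few loci cannot show whether these regions differ from that share.

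**Figure D3:**
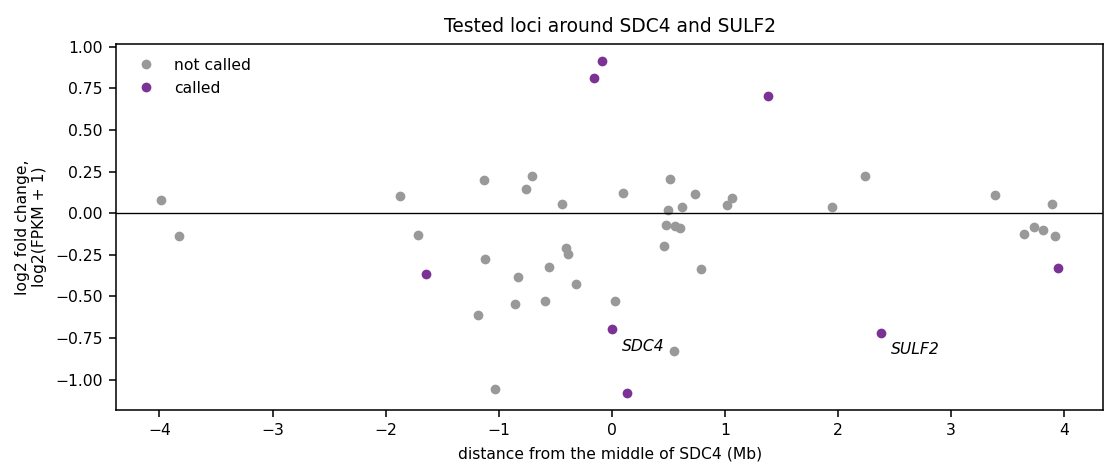
Log2 fold change on the log2(FPKM + 1) scale (vertical axis) of tested loci against distance from the middle of SDC4 in Mb (horizontal axis); purple points were called by limma and grey points were not. SDC4 and SULF2 are at -0.70 and -0.72, and the loci between them lie on both sides of 0 with a median of 0.03.

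The wider machinery was taken from lists of 122 genes ordered by role, of which 71 were tested. Of these 71, 9 were called higher and 7 lower by limma, against 6.41% and 4.96% of all tested loci, with a median log2 fold change of 0.05 against 0.02 over all tested loci. Without the 10 genes above, 8 of 62 were higher and 4 lower, with the same median of 0.05. The 16 calls fell to 8 without vector replicate 2 and to 10 without vector replicate 1. They fell to 7 without the pair of vector replicate 3 and circ_0005358 replicate 2. The counts by role below stand beside 11.4% of all tested loci called in either direction, and were not tested against that share.

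In the linkage region, XYLT1 was the only one of 7 genes that was called. PXYLP1, the phosphatase that takes the mark of FAM20B off again, was the most abundant on a row that also names ZBTB38, at 17.0 and 15.6 FPKM, and was not called. Among 11 tested genes of heparan sulfate chain assembly, 1 was higher and 1 lower. HS6ST3, an enzyme that adds the 6-O-sulfate that SULF2 removes, fell (5.87 ± 0.346 against 2.61 ± 0.0715 FPKM, SD, n = 3 each) (log2 fold change -0.93, limma adjusted p = 0.0013). The other tested genes of 6-O-sulfotransferases were not called. NDST2, an N-deacetylase and N-sulfotransferase, rose from 2.84 to 4.10 FPKM (limma adjusted p = 0.0425). Leaving out vector replicate 1 (adjusted p = 0.0952), vector replicate 2 (0.126), or circ_0005358 replicate 1 (0.0993), 2 (0.104) or 3 (0.123) ended the NDST2 call. Of the enzymes that act on heparan sulfate outside the cell, HPSE, the heparanase that cuts the chain, was the most abundant, at 8.87 and 9.41 FPKM, and was not called.

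Of 9 tested enzymes of chondroitin and dermatan sulfate assembly, 0 were called by limma, against 11.4% of all tested loci. At an unadjusted p under 0.05 the count was also 0, and the median log2 fold change of these enzymes was -0.07. A set of 9 cannot show whether this branch differs from the share of all loci. CHSY1 and CHST14, given under other observations, each had 1 library far below the others. CHPF, a chondroitin polymerising factor and the most abundant of them, ranged from 7.77 to 25.02 FPKM within the vector group. Of 3 tested hyaluronan genes, 0 were called by limma (1 at an unadjusted p under 0.05), and the most abundant, HYAL3, shares its row with 2 other names at 8.89 and 8.90 FPKM. The 1 tested gene of keratan sulfate, B4GALT4, was at 3.71 and 3.68 FPKM and was not called.

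Among 9 tested membrane cores, SDC1 and CSPG4 were higher and SDC4 was lower. CSPG4, a large chondroitin sulfate core, read 0.165, 0.236 and 0.544 FPKM in the vector libraries against 1.24, 1.82 and 1.33 FPKM in those with circ_0005358 (log2 fold change 0.91, limma adjusted p = 0.0185). Leaving out vector replicate 1 (adjusted p = 0.062), vector replicate 2 (0.0699), or circ_0005358 replicate 2 (0.0511) or 3 (0.0599) ended that call. CSPG4 reached the filter through the circ_0005358 libraries alone. Of 5 tested secreted cores, SPOCK1, a testican, rose (3.94 ± 0.319 against 9.05 ± 0.286 FPKM, SD, n = 3 each) (log2 fold change 1.03, limma adjusted p = 0.00129). LUM, the small leucine-rich core lumican, fell (7.47 ± 1.53 against 1.43 ± 0.294 FPKM, SD, n = 3 each) (log2 fold change -1.79, limma adjusted p = 0.00285). AGRN, on a row with 1 other name, was the most abundant secreted core at 21.7 and 23.3 FPKM and was not called.

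Of 12 genes that supply precursors, GFPT2 was higher and PAPSS1 lower. GFPT2, a first enzyme of the hexosamine route to amino sugars, rose (2.91 ± 0.0615 against 9.70 ± 0.615 FPKM, SD, n = 3 each) (log2 fold change 1.45, limma adjusted p = 0.000443). PAPSS1, which makes the sulfate donor, went from 18.4 to 14.3 FPKM (limma adjusted p = 0.0489), a call lost when any one library was left out (adjusted p from 0.074 without circ_0005358 replicate 2 to 0.145 without vector replicate 2). The most abundant, PAPSS2, was at 38.9 and 43.2 FPKM and was not called.

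Of 12 tested lysosomal enzymes of glycosaminoglycan breakdown, 4 were higher and 1 lower, against 6.41% and 4.96% of all tested loci, with a median log2 fold change of 0.16. SGSH, NAGLU and HGSNAT act in the stepwise breakdown of heparan sulfate and were higher, as was HEXA, a hexosaminidase subunit. HGSNAT read 8.66, 9.22 and 9.13 FPKM in the vector libraries against 13.04, 13.1 and 12.8 FPKM in those with circ_0005358 (log2 fold change 0.48, limma adjusted p = 0.00501). Its call was kept without any single library and lost without the pair of vector replicate 3 and circ_0005358 replicate 2 (limma adjusted p = 0.063). SGSH went from 2.41 to 4.71 FPKM (adjusted p = 0.0218), NAGLU, on a row with COASY, from 5.47 to 7.80 FPKM (adjusted p = 0.0455), and HEXA, on a row of 4 names, from 6.52 to 8.46 FPKM (adjusted p = 0.0143). IDS, the iduronate sulfatase, on a row of 4 names, went from 2.52 to 1.75 FPKM (adjusted p = 0.0278). A row with several names does not show which of its genes moved. Leaving out 1 library ended the NAGLU call in each of the 6 cases (adjusted p from 0.0565 without vector replicate 3 to 0.122 without circ_0005358 replicate 3). The SGSH call ended without vector replicate 1 (adjusted p = 0.0695), 2 (0.0693) or 3 (0.0502) and circ_0005358 replicate 3 (0.0692). For HEXA this held for vector replicate 1 (0.0601) and 2 (0.0588) and circ_0005358 replicate 3 (0.0575). For IDS it held for vector replicate 1 (0.068), 2 (0.0977) and 3 (0.0837) and circ_0005358 replicate 1 (0.0796) and 3 (0.0929).

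**Figure D4:**
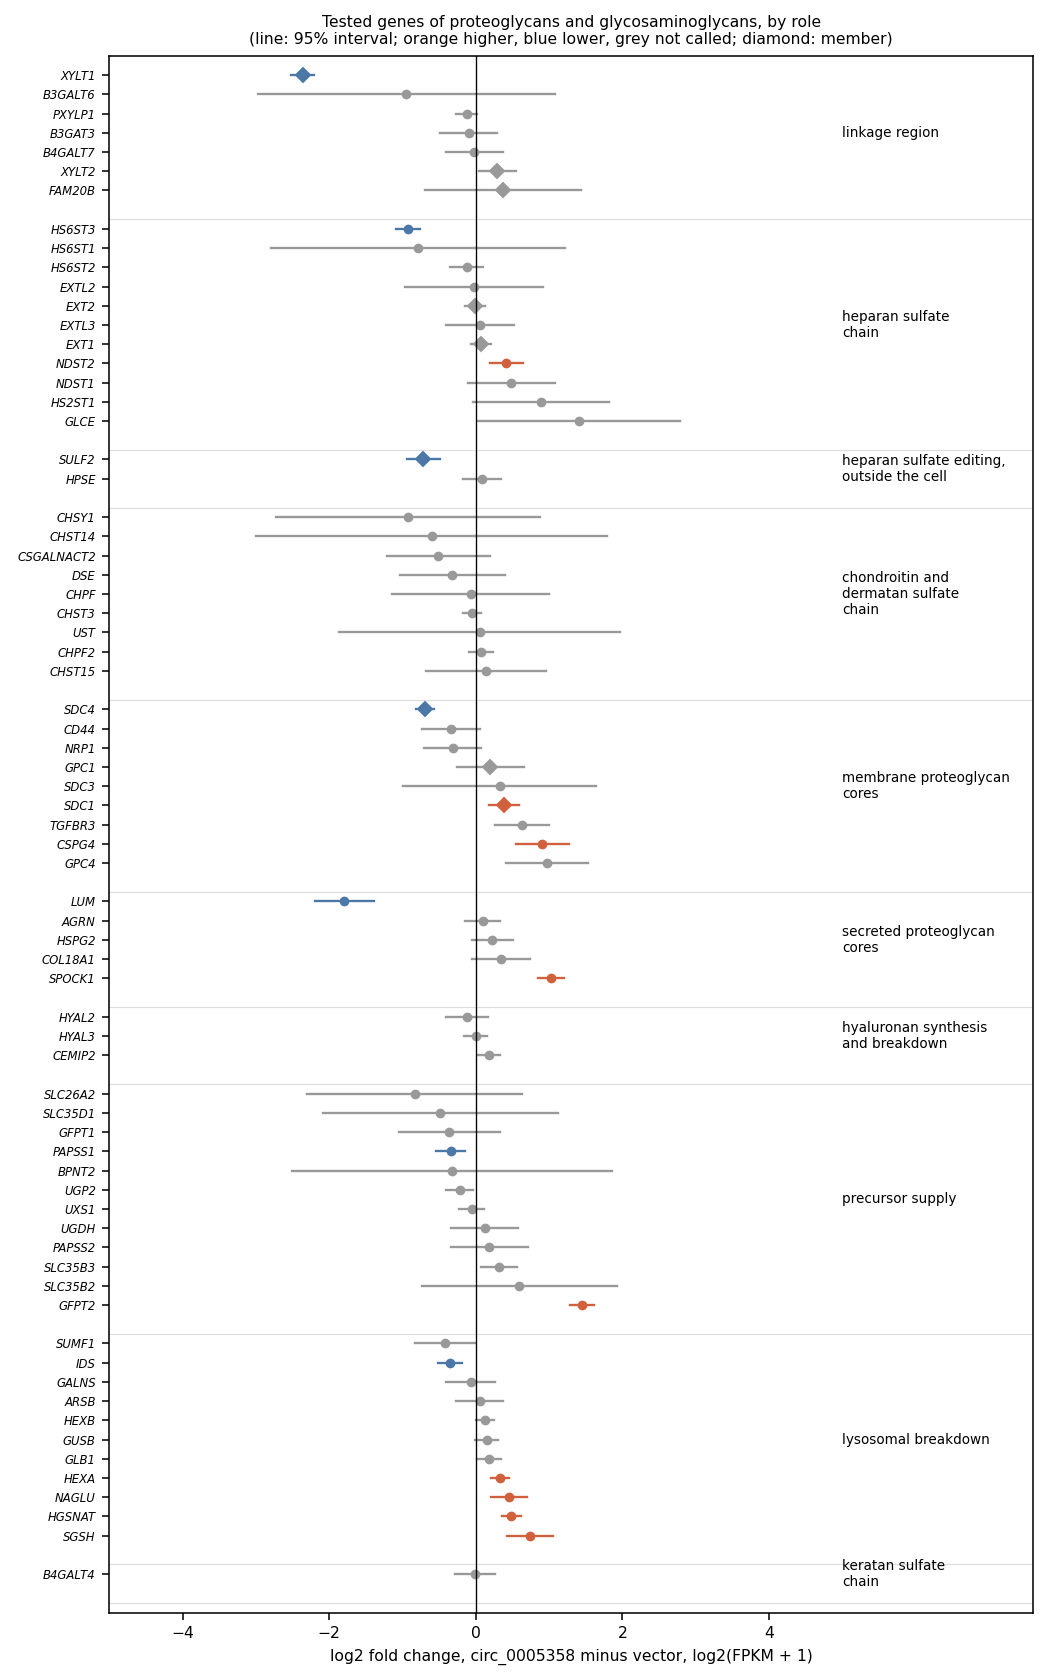
Log2 fold change on the log2(FPKM + 1) scale with its 95% interval (horizontal axis) for 70 of the 71 tested genes, grouped by role (vertical axis), with diamonds for the genes followed here. Blue marks the 7 genes called lower, orange the 9 called higher and grey the others, and XYLT1 at -2.36 stands farthest from 0.

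Markers of the cell line moved in the same comparison. Of 7 epithelial and carcinoma markers, 5 were called lower by limma, against 4.96% of all tested loci. The summed level of the 7, in which the most abundant genes weigh most, was between 1296 and 1374 FPKM with vector. With circ_0005358 it was between 636 and 725 FPKM. The basal keratins KRT14 and KRT5, the latter on a row with KRT6A, were also lower, and TP63, a squamous transcription factor, was at 0.254 FPKM at most. The summed level of 7 fibroblast markers was 2.96 to 3.80 FPKM with vector and 3.26 to 3.63 FPKM with circ_0005358, most of it from a row that joins PDGFRA with FIP1L1. The other 6 lay below the filter and were not tested. Among them COL1A2 was at 0.0557 FPKM at most. COL3A1 was 0.0357 to 0.206 FPKM in the vector libraries and 0.784 to 0.857 FPKM with circ_0005358. PDGFRB was 0.0457 to 0.183 FPKM against 0.196 to 0.25 FPKM. For both, the groups did not overlap. In the opposite direction, COL1A1 was 0.399 to 0.794 FPKM against 0.215 to 0.30 FPKM and FAP 0.219 to 0.298 FPKM against 0.0856 to 0.0961 FPKM. The groups did not overlap for COL1A1 and FAP either. Groups without overlap were seen in 35.8% of all tested loci, a share that does not cover loci below the filter. The summed level of 5 endothelial markers was 0.93 FPKM in vector replicate 3 and at most 0.395 FPKM in every other library. The 6 leukocyte markers summed to 65.4 to 68.3 FPKM and 52.6 to 69.7 FPKM, nearly all from CD14 and from a row that joins CD68 with 4 other names, while PTPRC, which every leukocyte carries, was at 0.0605 FPKM at most. The part of the epithelial markers' fall in the proteoglycan values was not tested.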

How the data were processed

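PolyA RNA of 6 SiHa libraries was sequenced, 3 per plasmid, and grouped by the treatment label. The authors deposited 1 table of FPKM for 35544 loci; per the submitters' processing notes, Trimmomatic and HISAT2 with hg19 were used; no version, FPKM program or annotation is named there. FPKM gives no read counts, so depth was estimated only as relative depth, from the FPKM that 1 fragment gives on loci with 1 transcript of known length. It was 71.1% of the deepest library in circ_0005358 replicate 2 and 93.8% to 100% in the others.

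Each symbol was matched to the names in a row, and the row with the highest mean was kept. The 10295 loci that reached 1 FPKM in 3 or more libraries were fitted with limma 3.58.1 in R 4.3.3 on log2(FPKM + 1) (pseudocount 1; trended variance; two-sided), adjusted by Benjamini-Hochberg over all of them at a threshold of 0.05. The fit was tested on simulated data. The members and lists were chosen with earlier results of these data known. Named genes are the 10 members, every listed gene past the threshold and the most abundant of each list, except 1 listed gene that is counted but not reported here; SULF1, SDC3, the markers and the genes under other observations were chosen otherwise, the last after their values were seen. Alternatives were 2 pseudocounts, 2 filters, 2 scalings, 2 variance models, the replicate block, and leaving out each library in turn with the tested loci kept. Omitting the pair of vector replicate 3 and circ_0005358 replicate 2 was added after seeing the data. Positions are from GENCODE 29 on GRCh38 and promoters from RefSeq on GRCh38.p14, not the build of the alignment.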

Additional observations from a re-analysis of the deposited data

How the results depend on the processing

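The calls of XYLT1 and SDC4 were kept in every alternative that tested them. SDC1 was called in 8 of the 16 alternatives. The 4 calls among the members became 3 with no filter and 3 to 4 with 1 library left out. They became 2 with FPKM of at least 5 in 3 libraries, a filter that does not test XYLT1, SULF2 or XYLT2. The 16 calls of the wider list became 9 with no filter, 10 with the stricter filter and 8 to 12 with 1 library left out. Those over all 1171 loci became 591 with no filter and 582 to 802 with 1 library left out. Without the pair of vector replicate 3 and circ_0005358 replicate 2, the counts were 2, 7 and 378. EXT2 changed sign when libraries were left out (log2 fold change -0.044 to 0.019) and was called in no alternative. Residual correlations of same-numbered libraries were 0.064, 0.048 and 0.078, and those of differently numbered libraries lay between -0.054 and -0.011. Each library thus correlated best with its own number, but values this small do not settle whether replicate numbers pair the libraries. With the replicate block, a fit that leaves fewer degrees of freedom, the counts were 2, 6 and 259. SULF2 (limma adjusted p = 0.0582), SDC1 (0.11) and HGSNAT (0.0638) were among the calls lost. The cause of the changes between alternatives was not tested.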

Other observations

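In 11 of the 71 tested genes of the wider list, 1 library differed at least 3-fold from the middle library of its own group, against 8.51% of all tested loci (15.5% of the list). These genes were chosen after their values were seen. B3GALT6, an enzyme of the linkage region, was listed at 0 in circ_0005358 replicate 2 and stood between 5.77 and 6.63 FPKM in the other 5 libraries. CHST14, a dermatan sulfotransferase, was listed at 0 in circ_0005358 replicate 3 and stood between 5.64 and 10.5 FPKM elsewhere. HS6ST1, a 6-O-sulfotransferase of heparan sulfate, was at 0.00375 FPKM in circ_0005358 replicate 3 and between 5.30 and 6.63 FPKM elsewhere. CHSY1, a chondroitin polymerase, was at 1.03 FPKM in circ_0005358 replicate 2 and between 10.1 and 11.9 FPKM elsewhere. GLCE, the epimerase of heparan sulfate, went the other way, with vector replicate 1 at 9.60 FPKM beside 1.98 and 1.67 FPKM in the other vector libraries and 9.83 to 11.9 FPKM with circ_0005358. None of these 5 genes was called by limma, but a library so far apart widens the spread that the test uses. None of the members was among the 11. FAM20B, at 17.8, 16.7 and 5.74 FPKM with circ_0005358, fell just short of the 3-fold difference.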
